A study of Mus musculus with 6 samples.

Results

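The 10 genes described here encode the main amino acid carriers of the renal tubule. They were taken by name, with earlier results of these data known. Slc6a19, Slc6a18, Slc6a20a, Slc6a20b, Slc7a9, Slc3a1 and Slc1a1 are of the apical membrane, and Slc7a7, Slc7a8 and Slc3a2 of the basolateral membrane. All 10 of 10 were measured, each through 1 transcript cluster carrying a single gene symbol, among 22180 genes tested. Total RNA of adult mouse kidney tissue was hybridised to Affymetrix Mouse Gene 2.1 ST arrays, with a separate array for each sample. The 3 arrays labelled Pax28 dKO (replicates 1, 3 and 5) are from mice homozygous for floxed Pax2 and Pax8 alleles that carry Rosa26CreER, a ubiquitously expressed tamoxifen-inducible Cre. The 3 Control arrays (replicates 2, 4 and 6) are from Cre-negative mice. Both groups received tamoxifen, at 50 mg/kg in corn oil, in 2 courses of 3 daily injections, the earlier one at 8 weeks and the later one at 10 weeks of age, and tissue was taken 14 days after the last injection. The controls therefore share the drug but not the recombinase. Each group has 2 females and 1 male, the males being dKO 1 and control 4.

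Amino acids filtered at the glomerulus are recovered almost completely in the proximal tubule. Apical carriers take them up from the lumen, mostly with sodium or in exchange for other amino acids, and basolateral exchangers and facilitators pass them on to the blood. Several of the carriers work as heteromers, in which a heavy chain of the Slc3 family brings a transporting light chain of the Slc7 family to the membrane. Inherited defects of these genes in humans cause aminoacidurias, among them Hartnup disorder (SLC6A19), cystinuria (SLC3A1 and SLC7A9), dicarboxylic aminoaciduria (SLC1A1) and lysinuric protein intolerance (SLC7A7).

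Median log2 values per array lay between 3.81 and 3.87. Neither targeted gene was lower on the arrays labelled Pax28 dKO. Pax8 had log2 values of 10.11, 10.59 and 10.39 there, against 9.09, 9.0 and 8.89 on the controls, and rose by 1.36 ± 0.12 (SE; limma adjusted p = 0.00369). Pax2 had 6.11, 6.49 and 6.16 against 6.09, 5.77 and 6.08 and did not pass (adjusted p = 0.189). Each is read through 1 cluster, and which exons the deletion removes is not given in the sources used here, so signal from outside the deleted part checks nothing, and every direction below is that of the arrays as labelled. Brown fat signal also differed between arrays. Ucp1, the uncoupling protein of brown adipocytes, had log2 values of 5.12, 4.74 and 3.87 on dKO 1, 3 and 5, against 7.77, 3.53 and 7.53 on controls 2, 4 and 6. The labels do not state that each array is a separate animal. By their sex labels, the male and female arrays of a group come from different animals, but its 2 female arrays need not. The p-values therefore describe the spread of these samples, which may be partly technical.

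The promoter windows of 4 of the genes are shown first: that of Slc6a19, the largest fall, and those of the 3 genes that hold a motif searched for. RefSeq (GRCm38.p6) gives windows of 250 bases before to 50 bases after an annotated start site for 9 of the 10 genes. Each is printed 5′ to 3′ on the gene's strand, and capitals mark the half-site GTTAAT, read on either strand, of the hepatocyte nuclear factor 1 proteins, which are regulators of proximal tubule genes. The windows are Slc6a19 at chr13:73692587-73692886 (minus strand), Slc7a7 at chr14:54409423-54409722 (minus strand), Slc6a20a at chr9:123678783-123679082 (minus strand) and Slc3a1 at chr17:85028097-85028396 (plus strand).
Slc6a19: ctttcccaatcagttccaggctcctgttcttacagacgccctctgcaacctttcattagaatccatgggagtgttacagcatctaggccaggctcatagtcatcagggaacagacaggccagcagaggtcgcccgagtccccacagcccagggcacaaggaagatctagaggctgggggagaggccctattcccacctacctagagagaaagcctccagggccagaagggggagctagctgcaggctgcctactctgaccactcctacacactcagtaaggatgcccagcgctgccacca
Slc7a7: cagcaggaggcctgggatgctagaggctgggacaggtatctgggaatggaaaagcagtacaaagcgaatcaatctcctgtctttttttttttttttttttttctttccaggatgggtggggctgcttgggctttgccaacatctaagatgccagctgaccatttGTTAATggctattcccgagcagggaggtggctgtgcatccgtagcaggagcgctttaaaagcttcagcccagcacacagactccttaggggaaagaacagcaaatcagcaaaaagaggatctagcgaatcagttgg
Slc6a20a: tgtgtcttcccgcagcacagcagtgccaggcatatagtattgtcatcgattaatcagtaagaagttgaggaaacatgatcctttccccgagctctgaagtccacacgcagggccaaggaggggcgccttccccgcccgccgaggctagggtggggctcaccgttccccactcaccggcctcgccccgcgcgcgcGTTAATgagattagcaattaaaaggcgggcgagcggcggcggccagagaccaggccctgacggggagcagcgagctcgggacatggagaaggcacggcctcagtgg
Slc3a1: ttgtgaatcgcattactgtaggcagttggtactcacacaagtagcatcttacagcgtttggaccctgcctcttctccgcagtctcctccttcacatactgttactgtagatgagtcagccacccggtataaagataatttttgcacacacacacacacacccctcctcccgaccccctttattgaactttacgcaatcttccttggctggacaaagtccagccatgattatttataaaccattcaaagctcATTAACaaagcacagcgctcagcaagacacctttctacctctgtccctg

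GTTAAT was present in a window of 3 of the 9 genes, while 8.24% of the 27025 genes with a window held it. Counted by window, 7.1% of 32851 windows held it. A gene with more windows has more places for a match, and the number of windows per gene was not matched. It began at position -86 from the start site in Slc7a7, in 1 of the 5 windows of that gene, at -56 in Slc6a20a and at 2 on the opposite strand in Slc3a1. The windows of Slc6a19, Slc7a9 and Slc1a1 held none. Among the transporters that passed as lower, described below, only Slc7a7 held it. GCGTGAC, a core sequence bound by PAX proteins of the Pax2, Pax5 and Pax8 group, was in no window of the 9 genes, against 2.43% of all genes with a window. The letters were searched on both strands, the motifs share no overlap, and a match or its absence in these windows says nothing of binding. Slc6a20a and Slc6a20b, which lie next to each other on chromosome 9, had windows identical at 141 of 324 aligned columns (43.5%).

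**Figure D1:**
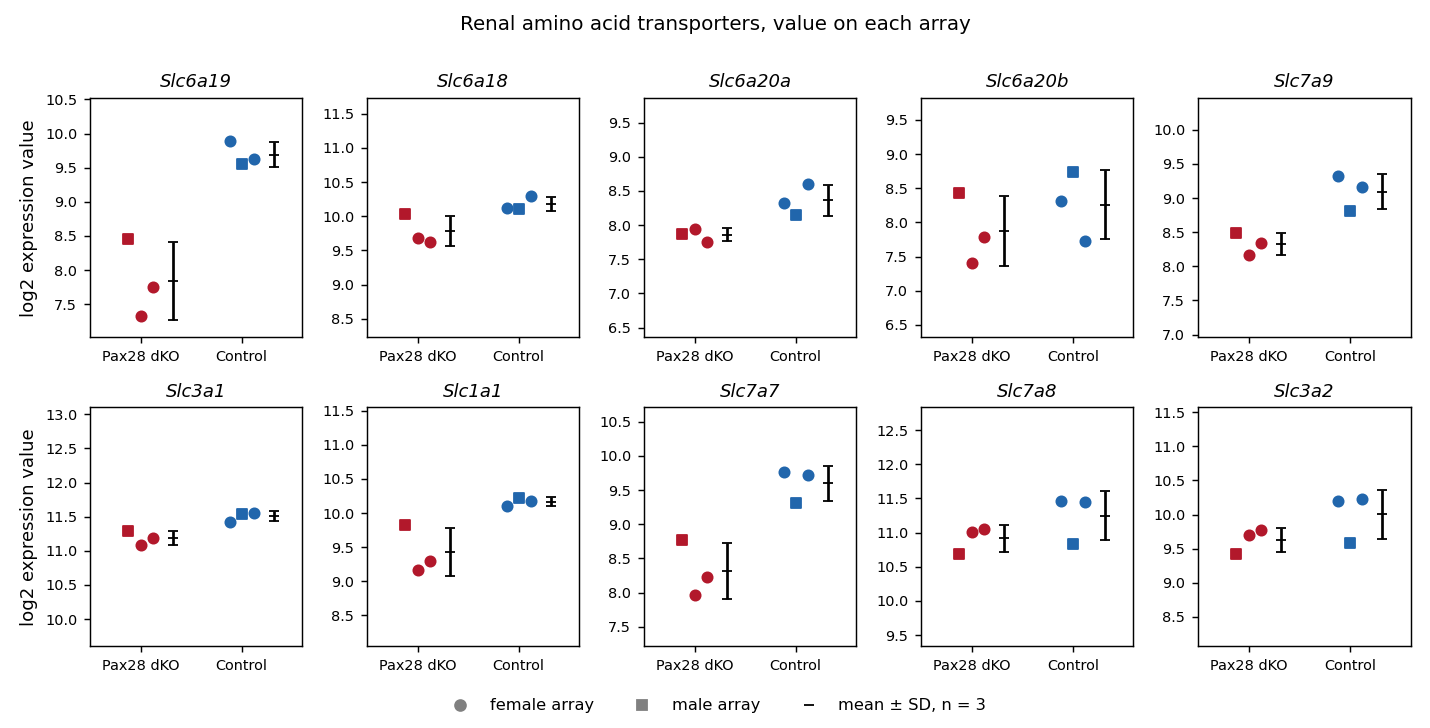
Log2 expression value (y axis, the same span of log2 units in each panel) of the 10 transporters on the 3 Pax28 dKO arrays and the 3 Control arrays. Circles are female arrays, squares male arrays, and the black bar is the mean ± SD (n = 3). The groups do not overlap for 7 of the 10 genes, and Slc6a19 and Slc7a7 are the most widely separated.

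All 10 transporters had a lower mean on the arrays labelled Pax28 dKO, and 4 of 10 passed the test as lower: the neutral amino acid carrier Slc6a19, the cationic amino acid exchanger Slc7a7, the cystine carrier light chain Slc7a9 and the glutamate carrier Slc1a1. None passed as higher. Of all genes tested, 7.2% passed, 3.08% as lower and 4.12% as higher, with limma and a Benjamini-Hochberg adjusted p below 0.05. The median log2 difference over the 10 genes was -0.45 (range -1.85 to -0.31), and over all 22180 genes it was -0.01. At an unadjusted p below 0.05, 9 of the 10 lay past the threshold, against 22% of all genes. In whole kidney RNA, fewer cells of a type and less RNA per cell cannot be told apart.

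Slc6a19, Slc6a18, Slc6a20a and Slc6a20b are sodium-coupled apical carriers of the Slc6 family. Slc6a19 (Entrez gene 74338) encodes B0AT1, which takes up most neutral amino acids and depends on the partner protein collectrin in the kidney. Its log2 values were 8.45, 7.32 and 7.75 on dKO 1, 3 and 5, against 9.89, 9.56 and 9.63 on controls 2, 4 and 6. The groups were well apart, with the male array the highest of the dKO group. Slc6a19 was 3.61-fold lower, at a mean of 7.84 ± 0.57 against 9.69 ± 0.18 (SD, n = 3 in each group), and its log2 fold change was -1.85 ± 0.24 (SE; limma adjusted p = 0.011). Its neighbour on chromosome 13, Slc6a18, encodes an apical carrier of neutral amino acids such as glycine. Slc6a18 had log2 values of 10.03, 9.68 and 9.63 on the dKO arrays, against 10.13, 10.11 and 10.30 on the controls. The groups did not overlap, but the male dKO array came close to the controls. The log2 difference was -0.40 (95% interval -0.69 to -0.11) and did not pass (adjusted p = 0.11). The gap between the neighbours, a log2 difference of -1.85 for one and -0.40 for the other, was not itself tested.

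Slc6a20a and Slc6a20b are related mouse genes whose human counterpart, SLC6A20, encodes an imino acid carrier for proline. Slc6a20a had log2 values of 7.87, 7.94 and 7.75 on the dKO arrays, against 8.33, 8.15 and 8.61 on the controls, and the groups did not overlap. Its log2 difference of -0.50 (95% interval -0.79 to -0.21) missed the threshold (adjusted p = 0.0576). Slc6a20b had 8.43, 7.41 and 7.79 on the dKO arrays, against 8.31, 8.74 and 7.73 on the controls. Its groups overlapped widely, and in each group the male array was the highest. The log2 difference was -0.39, with a 95% interval of -0.80 to 0.02 (adjusted p = 0.256). Whether probes of one of these copies also read the other was not tested.

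Slc7a9 and Slc3a1 form the apical exchanger for cystine and dibasic amino acids, with Slc7a9 (b0,+AT) as the transporting light chain and Slc3a1 (rBAT) as the heavy chain. Slc7a9 had log2 values of 8.48, 8.16 and 8.34 on the dKO arrays, against 9.32, 8.81 and 9.16 on the controls. It was lower on each dKO array than on any control and fell by 0.77 on the log2 scale (SE 0.15; adjusted p = 0.0325). Slc3a1 had 11.29, 11.09 and 11.19 against 11.42, 11.54 and 11.56, again without overlap but within a narrower span. Its log2 difference was -0.31 (95% interval -0.51 to -0.11; adjusted p = 0.0776).

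Slc1a1 encodes EAAC1, the apical carrier that recovers glutamate and aspartate. Its log2 values were 9.82, 9.17 and 9.29 on the dKO arrays, against 10.10, 10.22 and 10.18 on the controls. The controls lay close together, and the male dKO array was nearest to them. Slc1a1 was 1.67-fold lower, a log2 fold change of -0.74 ± 0.12 (SE; adjusted p = 0.0206).

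The basolateral side held the second largest fall and 2 of the 3 genes whose groups overlapped. Slc7a7 (Entrez gene 20540) encodes y+LAT1, the light chain that exports cationic amino acids, and is also known in macrophages. Its log2 values were 8.77, 7.97 and 8.22 on the dKO arrays, against 9.77, 9.31 and 9.72 on the controls, with no overlap. Slc7a7 was 2.43-fold lower, at 8.32 ± 0.41 against 9.60 ± 0.26 (SD, n = 3 in each group), and its log2 fold change was -1.28 ± 0.22 (SE; adjusted p = 0.0238). Slc7a8 encodes LAT2, a light chain that exchanges neutral amino acids. It had log2 values of 10.69, 11.01 and 11.05 on the dKO arrays, against 11.46, 10.83 and 11.45 on the controls. The male arrays were the lowest of both groups, and the female dKO arrays lay above the male control. The log2 difference of -0.33 (95% interval -0.54 to -0.12) did not pass (adjusted p = 0.0805). Slc3a2 encodes 4F2hc, the heavy chain shared by both of these light chains and carried by many dividing and immune cells as the CD98 antigen. Its values of 9.43, 9.69 and 9.77 against 10.20, 9.59 and 10.22 had the same arrangement, with a log2 difference of -0.37 (95% interval -0.60 to -0.15; adjusted p = 0.067).

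The log2 difference between light and heavy chain was taken on each array for 3 pairs, a comparison added after the values were seen. For Slc7a7 minus Slc3a2 it was -0.66, -1.73 and -1.55 on the dKO arrays, against -0.43, -0.28 and -0.50 on the controls. For Slc7a9 minus Slc3a1 it was -2.81, -2.93 and -2.85 on the dKO arrays, against -2.10, -2.73 and -2.39. Both pairs were lower on each dKO array than on any control, so the light chain was lower relative to its heavy chain, by 0.91 and 0.45 log2 units on average, with an exact two-sided permutation p of 0.1 for both, the smallest that 3 against 3 arrays allow. For Slc7a8 minus Slc3a2 the values were 1.26, 1.32 and 1.28 against 1.26, 1.24 and 1.22, which overlap at the given precision, and the exact p was 0.2. No pair can pass 0.05 in this design.

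**Figure D2:**
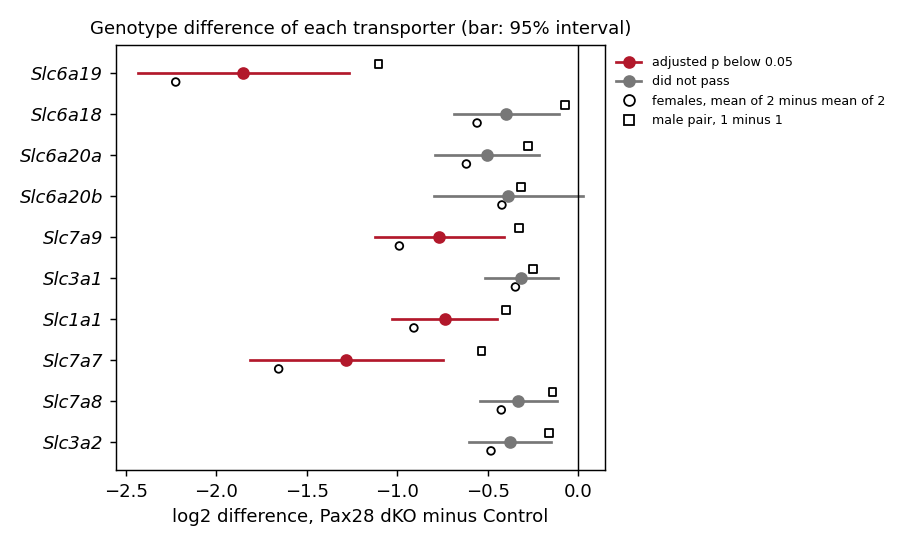
Log2 difference, Pax28 dKO minus Control, of each transporter (x axis) with its 95% interval from limma as a bar; red marks an adjusted p below 0.05. Open circles are the difference of the female means and open squares that of the single male arrays, and each square lies nearer to 0 than the circle of the same gene.

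The groups did not overlap, with the dKO arrays lower, for 7 of the 10 transporters, against 10.8% of all genes, and with the dKO arrays higher for 0 of the 10, against 11.7%. The difference had the same sign in both sexes. The male dKO array was below the male control for 10 of 10 transporters, against 50.6% of all genes, and both female dKO arrays were below both female controls for 9 of 10, against 25.9%, the exception being Slc6a20b. The male pair compares dKO 1 with control 4, where Ucp1 had log2 values of 5.12 and 3.53. The part of fat tissue in these values was not tested. In size, the median log2 difference was -0.29 in the male pair and -0.59 in the females. Slc6a19 differed by -1.10 in the males and -2.22 in the females, and Slc7a7 by -0.53 and -1.66. A genotype by sex term, which rests on 1 male array per group, passed for 0 of the 10 with limma (adjusted p of 0.442 for Slc7a7, 0.618 for Slc6a19). At an unadjusted p below 0.05 it picked 5 of the 10, against 6.99% of all genes, and 0.00451% of all genes passed after adjustment.

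The 4 calls depended on single arrays. Without control 2, or without control 6, 0 of the 10 transporters passed, with adjusted p between 0.0506 and 0.0592 for Slc6a19 and up to 0.0992 for Slc7a7, 0.119 for Slc7a9 and 0.0865 for Slc1a1. Without dKO 3 or dKO 5 only Slc6a19 of the 10 passed (adjusted p = 0.0278 and 0.0459). Leaving out either male array gives the comparison of the females alone, since the remaining male then fits only the sex term. In it 6 of the 10 passed, the added genes being Slc6a18 (adjusted p = 0.0441) and Slc3a2 (0.0491). No transporter changed sign with any array left out. With controls 2 and 6, the arrays of highest Ucp1, both left out, 0 of the 10 and 0 of all genes passed with limma, and the fit, with 1 residual degree of freedom, gives the difference of the male pair.

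**Figure D3:**
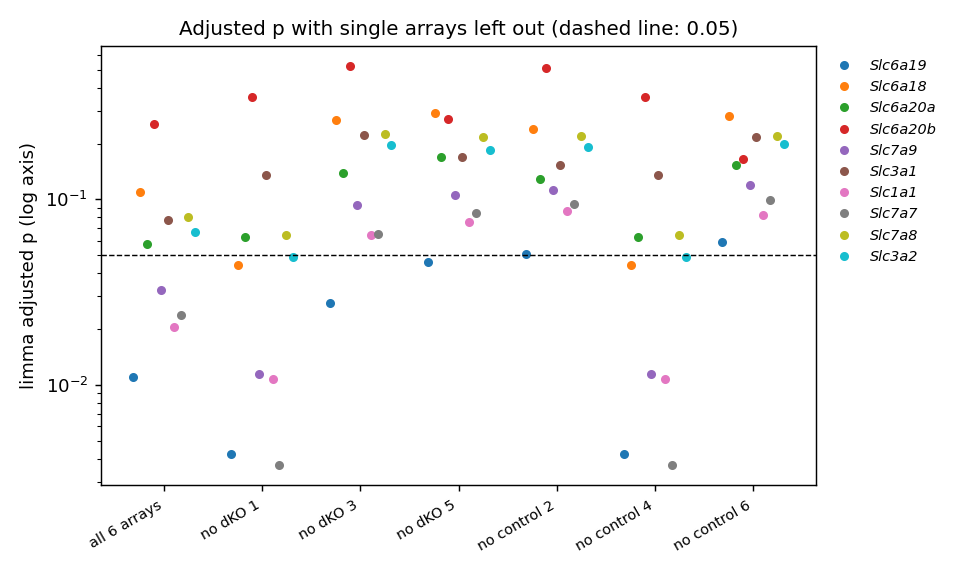
Limma adjusted p (y axis, log scale) of the 10 transporters with all 6 arrays and with each array left out in turn; the dashed line is 0.05. Points are spread sideways so that they can be told apart. Slc6a19 stays below the line except without control 2 (0.0506) or control 6 (0.0592).

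No transporter passed between male and female arrays. Slc7a8 was lower in males, at a mean log2 value of 10.76 in the 2 males and 11.24 in the 4 females (difference -0.48 ± 0.09, SE; adjusted p = 0.0639), and Slc3a2 likewise at 9.51 and 9.97 (adjusted p = 0.0815). Slc6a20b went the other way, at 8.59 in males and 7.81 in females (adjusted p = 0.0968). At an unadjusted p below 0.05, 4 of the 10 lay past the threshold, against 16.1% of all genes. After adjustment 1.25% of all genes passed as higher and 0.618% as lower in males. With a trended robust prior, Slc7a8 and Slc3a2 passed (adjusted p = 0.0122 and 0.022).

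Of 36 other amino acid carriers measured, 4 passed as lower, 2 as higher and 30 did not pass, with a median log2 difference of -0.02. Of all genes, 3.08% passed as lower and 4.12% as higher, so the count of higher carriers is near that of genes in general. The lowest was Slc6a12, the betaine and GABA carrier of the medulla, with log2 values of 4.12, 3.86 and 3.75 on the dKO arrays against 5.59, 4.64 and 5.87 on the controls (-1.45 ± 0.28, SE; adjusted p = 0.0292). Slc1a4, an exchanger of alanine, serine and cysteine, fell by 1.07 ± 0.17 (adjusted p = 0.0181), with overlapping groups and both male arrays high. The GABA carrier Slc6a13 fell by 0.58 ± 0.10 (adjusted p = 0.0244). The basolateral facilitator Slc43a2 (LAT4), which lets neutral amino acids leave the cell, fell by 0.42 ± 0.09 (adjusted p = 0.0435).

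The 2 carriers that passed as higher were Slc38a2 and Slc6a6. Slc38a2 (SNAT2), a sodium-coupled importer that cells raise when starved of amino acids, had 8.94, 9.59 and 9.32 on the dKO arrays against 8.71, 8.22 and 8.26 on the controls (0.89 ± 0.15, SE; adjusted p = 0.0199). The taurine carrier Slc6a6 had 10.44, 10.55 and 10.30 against 9.92, 10.03 and 9.82 (0.50 ± 0.10; adjusted p = 0.0326). The basolateral aromatic amino acid carrier Slc16a10 (0.30, 95% interval 0.06 to 0.54) and the glutamine carrier Slc38a3 (0.55, -0.02 to 1.12) did not pass. Without control 2 none of these 6 genes passed, and without control 6 only Slc1a4 did; Slc43a2 and Slc6a6 missed the threshold whichever array was left out, with adjusted p of at most 0.145 and 0.119.

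**Figure D4:**
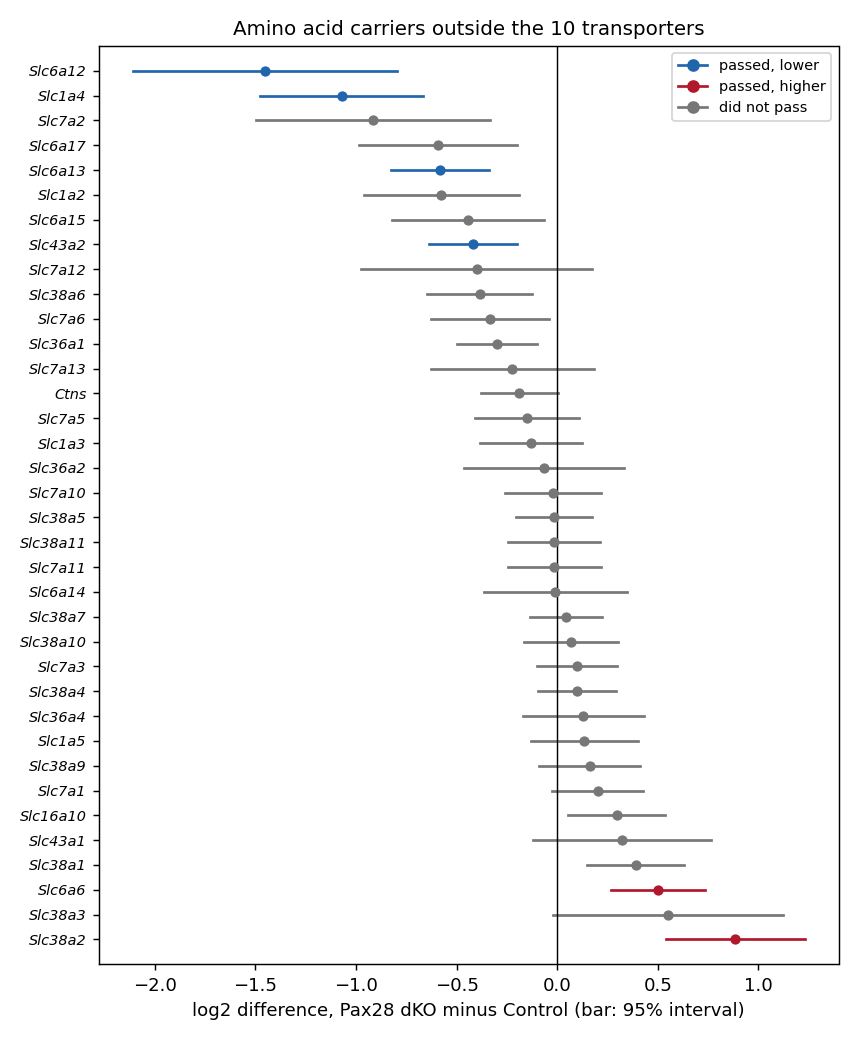
Log2 difference, Pax28 dKO minus Control (x axis), of the 36 other amino acid carriers, ordered by size, with 95% intervals from limma. The 4 that passed as lower are blue, the 2 that passed as higher are red, and the other 30 are grey.

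Of the 36 other carriers 3 passed between the sexes, Slc7a13 and Slc1a4 as higher and Slc7a12 as lower in males. Slc7a13 (AGT1), an acidic amino acid and cystine light chain that also pairs with Slc3a1, had log2 values of 10.73 on the male dKO array and 4.63 and 3.95 on the female dKO arrays, against 10.93 on the male control and 4.48 and 4.57 on the female controls. It was 6.42 ± 0.18 log2 units (SE) higher in males (limma adjusted p = 2.8e-05), and its genotype difference of -0.22 did not pass (adjusted p = 0.52). Slc1a4 had a mean log2 value of 7.36 in males and 5.82 in females (1.55 ± 0.18, SE; adjusted p = 0.0138) and missed the threshold without dKO 1 (0.0994) or control 2 (0.0587). Slc7a12 was lower in males, by a log2 difference of -1.59 (adjusted p = 0.0395), and this call was lost when any array other than dKO 1 was left out, the adjusted p reaching 0.124.

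Among peptide carriers and partner proteins, 0 of 6 measured passed with limma (2 at an unadjusted p below 0.05; median -0.05). Cltrn, encoding collectrin, the partner of Slc6a19 at the apical membrane, had log2 values of 11.44, 11.22 and 11.23 on the dKO arrays against 11.44, 11.49 and 11.46 on the controls (-0.17, 95% interval -0.36 to 0.02). Of 24 measured enzymes of amino acid breakdown (median -0.18), 5 passed as lower (against 3.08% of all genes) and none as higher (against 4.12%). They were the D-amino acid oxidase Dao (-0.84 ± 0.15, SE), the proline oxidase Prodh (-0.77 ± 0.12), the glycine cleavage subunit Amt (-0.73 ± 0.13), the dioxygenase Haao of tryptophan breakdown (-0.61 ± 0.11, with overlapping groups) and Aldh4a1 (-0.57 ± 0.09), which acts after Prodh. Adjusted p lay between 0.017 and 0.0238. Of 16 genes of the response to amino acid shortage, 1 rose, the stress-induced Sesn2 (0.87 ± 0.13; adjusted p = 0.0165), and 1 fell, the serine hydroxymethyltransferase Shmt2 (-0.65 ± 0.14; adjusted p = 0.045), with a median of 0.15. The counts of these 16 response genes are near the shares of all genes that passed (4.12% higher, 3.08% lower). The other 14 response genes did not pass. Their log2 differences included 1.55 for Atf3 (adjusted p = 0.139), 0.49 for Cebpb (0.116), 0.44 for Ddit4 (0.127), 0.35 for Trib3 (0.0509), 0.23 for Atf5 (0.243), 0.14 for Atf4, -0.01 for Asns and -0.04 for Ddit3. With the dKO arrays higher, the groups did not overlap for 6 of the 16, Sesn2, Atf3, Cebpb, Ddit4, Trib3 and Atf5, against 11.7% of all genes; these genes were named after their values were seen. Of the genes of this paragraph that passed, the 5 breakdown enzymes, Sesn2 and Shmt2, none did so without control 2 or without control 6.

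Over the 6 arrays, the gene outside the 10 closest in profile to Slc6a19 was Slc5a12, a lactate carrier of the early proximal tubule, with a root mean square difference of 0.14 log2 units after each gene's own mean was removed. The esterase Ces1e (0.20) and Nepn (0.23), which encodes nephrocan, came next. Their log2 differences were -1.65, -1.91 and -1.74, a direction fixed by choosing them for their likeness to Slc6a19.

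Markers of several cell types also differed between the groups, some lower like the transporters and others higher. In the proximal tubule list 5 of 17 passed as lower (Slc5a2, Slc5a12, Miox, Slc34a1 and Slc5a8) and none as higher. Over all genes, the shares that passed were 3.08% as lower and 4.12% as higher, to be set beside each count of this paragraph. The median of the list was -0.36, and 13 of 17 lay below 0, with Pck1 (0.37), Slc13a1 (0.25), Cyp7b1 (0.15) and Slc22a6 (0.09) above it. The mean log2 level of the list was 9.65 to 10.6 on the dKO arrays and 10.5 to 10.9 on the controls. Cyp7b1 in this list is 4.93 log2 units higher in males (adjusted p = 3.19e-06). With the whole list, dKO 1 (10.61) lay above controls 2 (10.56) and 6 (10.54). Without Cyp7b1, a step added after the values were seen, the list mean was 10.63, 9.90 and 10.14 on dKO 1, 3 and 5. It was 10.89, 10.89 and 10.87 on controls 2, 4 and 6, so each dKO array lay below the controls only after this removal. Slc5a8 and Slc22a6, which also passed as higher in males (by 1.23 and 0.86 log2 units), were kept. Other nephron markers passed as lower in 2 of 8 cases (Aqp2 and Avpr2, list mean 8.97 to 9.27 against 9.19 to 9.54). The rest did not pass and went both ways, with Slc12a3 (0.33), Umod (0.31) and Calb1 (0.03) above 0. Slc12a1 (-0.25), Atp6v1b1 (-0.25) and Nphs1 (-0.14) lay below it. Injury genes passed as higher in 6 of 8 cases (Lcn2, Clu, Cp, Sox9, Vcam1 and Krt20, list mean 7.61 to 7.90 against 6.10 to 6.77). Fgb (log2 difference 0.91) and Havcr1 (-0.60, so lower on the dKO arrays) did not pass. Macrophage genes passed as higher in 9 of 10 (6.68 to 7.34 against 5.54 to 5.78), with Cd14, Ctss, Cd68, C1qb, C1qa and Aif1 of smallest p. Cell cycle genes did so in 7 of 7 (Mki67, Prc1, Top2a, Ccna2, Cdk1, Mcm5 and Birc5, list mean 5.02 to 5.92 against 3.78 to 3.96). Lymphocyte genes passed as higher in 2 of 7 (Cd4 and Ptprc, list mean 4.07 to 4.23 against 3.80 to 3.95). The other lymphocyte genes did not pass: Cd79a (0.23), Ms4a1 (0.13), Cd3e (0.11), Cd8a (0.09) and Cd3d (-0.18). Of 5 adipose genes 0 passed with limma, and 0 did at an unadjusted p below 0.05 (5.14 to 6.01 against 4.83 to 7.11). Each of the 5 was higher in the male pair and lower in the females, as in Ucp1 (1.58 and -3.35). These counts therefore do not show that fat signal was alike. The adipose list mean was 7.11 and 6.90 on controls 2 and 6, and 4.83 on control 4. The median log2 differences were -0.19 for other nephron markers, 1.34 for injury, 1.33 for macrophage, 1.86 for cell cycle, 0.13 for lymphocyte and -0.51 for adipose genes. No marker is listed at 0. The part of any of these cell types in the transporter values was not tested.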

How the data were processed

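Each of 6 kidney samples was measured on its own array, starting from 400 ng. What the authors deposited is a log2 expression value for each transcript cluster. The submitters' processing notes name RMA, limma and R 3.4.0 and give them no role; the genome build and any filter are not stated in the sources used here. The authors' log2 values were used as deposited. Of 41345 clusters, 23521 carried 1 gene symbol in the platform annotation, 1814 several and 16010 none; the last 2 kinds were left out. Symbols were looked up by Entrez identifier in RefSeq (GRCm38.p6), which changed 0 of them. For 1082 genes with several clusters the one with the highest mean was used, leaving 22180 genes.

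Differences (Pax28 dKO minus Control) were tested in R 4.3.3 with limma 3.58.1, using genotype and sex as terms (3 residual degrees of freedom) and default empirical Bayes moderation. P-values were Benjamini-Hochberg adjusted over all 22180 genes at 0.05. The sex difference came from the same model; a genotype by sex term was tested in a second. Errors of differences are moderated SEs and intervals are 95%. In 10 simulations of this comparison over 22180 genes with 200 changed genes, log2 changes of 0.5, 1 and 2 were recovered in 14.8%, 88.8% and 99.6%, with 3.69% of calls false. Noise was drawn independently for each gene and array, without differences shared by many genes of an array. In the data 1596 genes were called, so these rates may not hold there.

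The members and gene lists were chosen with earlier results of these data known. Of 164 list entries 154 were measured; the others were not analysed here. Besides the 10 transporters, the text names every called gene of a list with 8 or fewer calls, otherwise the 6 of smallest p, and the 3 genes nearest in profile to the largest fall. Other genes were chosen after their values were seen. The 6 arrays limit the precision. Alternatives were a model without sex, females only, single arrays left out, weighted arrays, a robust prior with a trend, median-centred or quantile-normalized values, removal of genes with a mean log2 value below 3.28, cluster averages, all clusters, and, added after seeing the data, controls 2 and 6 left out.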

Additional observations from a re-analysis of the deposited data

How the results depend on the processing

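Over 16 alternative settings, 0 of 160 transporter differences changed sign. Of the 160, 124 stayed on their side of the threshold, 24 lost the call and 12 gained it. These settings are not independent. Without sex, with the trended robust prior, without dim genes, with cluster averages and over all clusters, each difference equals the main one, so its sign was fixed. Females only and the fits without either male array are the same fit, counted each time. Transporters that passed as lower, 4 with all arrays, numbered 2 without sex in the model, 8 with a trended robust prior, 0 when all 41345 clusters were tested, 0 without controls 2 and 6, and between 0 and 6 with single arrays left out. None passed as higher under any of these settings. The 1596 genes called overall became 471 without sex, 302 over all clusters, 0 without controls 2 and 6, and between 344 and 1249 with single arrays left out. Other carriers passing as lower, 4 with all arrays, numbered 1 without sex, 0 over all clusters, 0 without controls 2 and 6, and 0 to 5 with single arrays left out. Those passing as higher, 2 with all arrays, numbered 1 in females only, 0 without sex, 0 over all clusters, 0 without controls 2 and 6, and 0 to 1 with single arrays left out. Between the sexes, 0 transporters became 2 with the trended robust prior and 1 (Slc7a8) without dim genes, and stayed at 0 with single arrays left out. The cause of these changes was not tested. The genotype by sex count was 0 in each setting that could be fitted; it could not be fitted without a male array. No paired analysis was possible because the groups share no replicate number.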

Other observations

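Slc7a12, a further amino acid carrier of the kidney, had log2 values of 10.07 on the male dKO array and 10.94 and 11.15 on the female dKO arrays, against 9.65 on the male control and 11.81 and 11.90 on the female controls. It was thus higher in the male pair (0.42) and lower in the females (-0.81), and the genotype by sex term did not pass with limma (adjusted p = 0.382).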
